A study of Mus musculus with 24 samples.

Results

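De novo fatty acid synthesis was followed through 10 genes, Fasn, Acly, Acaca, Acacb, Scd1, Scd2, Elovl6, Srebf1, Thrsp and Mlxipl, among the 37991 Ensembl genes of the count table. They were chosen by name, as enzymes of the pathway and its regulators, and each symbol matched 1 Ensembl gene in GENCODE M1. RNA of mammary tissue from female mice was sequenced in 24 samples, 3 from PyMT and 3 from FVB mice at each of weeks 6, 8, 10 and 12. PyMT mice were heterozygous for a transgene of the polyoma virus middle T antigen, which the MMTV promoter drives in mammary epithelium, and carried it on the FVB background. FVB females without the transgene served as age-matched controls and received no treatment that the sources name. The PyMT samples were hyperplastic mammary gland at week 6, adenoma/MIN tumor at week 8, early carcinoma tumor at week 10 and late carcinoma tumor at week 12, whereas all FVB samples were normal mammary gland. Genotype and state of the tissue therefore cannot be told apart at any week.

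Fat cells and the epithelium of the lactating gland are the main sites of fatty acid synthesis in the mammary gland. Citrate that leaves the mitochondria is split by ATP citrate lyase (Acly) into acetyl-CoA, acetyl-CoA carboxylase (Acaca in the cytosol, Acacb at the mitochondria) makes malonyl-CoA from it, and fatty acid synthase (Fasn) builds palmitate. Elovl6 lengthens palmitate to stearate, and the stearoyl-CoA desaturases Scd1 and Scd2 put a double bond into stearate and palmitate. SREBP-1, the product of Srebf1, switches these genes on downstream of insulin and the liver X receptor, ChREBP, the product of Mlxipl, does so in response to glucose metabolites, and Thrsp (Spot 14) is a small protein of lipogenic tissues that acts with them.

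Positions are given on mm9. Fasn (chr11:120667254-120685492), Acly (chr11:100337667-100389314) and Srebf1 (chr11:60012591-60036083) lie on the minus strand of chromosome 11 and Acaca (chr11:83943174-84215153) on its plus strand. Scd2 (chr19:44368166-44381354, plus strand) and Scd1 (chr19:44468941-44482199, minus strand) both lie on chromosome 19. Acacb (chr5:114596544-114700770) and Mlxipl (chr5:135582761-135614254) lie on chromosome 5 and Elovl6 (chr3:129235304-129341413) on chromosome 3, all on the plus strand, and Thrsp (chr7:104561448-104566240) on the minus strand of chromosome 7. All 10 are protein-coding. The counts are per gene over its exons, so transcripts from different starts of a gene were added up. Srebf1 shares 109 exon bases with Rai1 on the opposite strand, a gene with 21626 counts over all samples, and whether the counting used strand was not given in the sources used here. Of the 50-base words in Scd1 transcripts, 4.66% also occur in Scd2, Scd3 or Scd4, and 3.79% of the Scd2 words occur in Scd1, Scd3 or Scd4, so a small part of their reads could be split between them. For Fasn, Acly, Acaca, Acacb, Srebf1, Thrsp and Mlxipl no such word was shared with another protein-coding gene, and for Elovl6 the share was 0.577%.

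The 250 bases before a start site are shown for Fasn and Thrsp, which fell, and for both regulators, which moved apart, so that the elements known to bind SREBP-1, ChREBP and their partners can be looked up in them. RefSeq windows on GRCm38.p6 were at hand for 8 of the 10 genes, all but Scd1 and Scd2. Capitals mark 4 motifs on either strand, the sterol regulatory element TCACNCCAC, the E-box CACGTG, the CCAAT box CCAAT and the GC box GGGCGG. Neighbouring motifs can touch or overlap.
Fasn (chr11:120824548-120824797, minus strand): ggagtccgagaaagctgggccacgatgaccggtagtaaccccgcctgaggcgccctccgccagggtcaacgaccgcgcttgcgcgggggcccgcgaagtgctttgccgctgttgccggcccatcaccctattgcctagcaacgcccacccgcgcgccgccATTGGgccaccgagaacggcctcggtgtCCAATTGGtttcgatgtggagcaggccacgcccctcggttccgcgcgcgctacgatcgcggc
Thrsp (chr7:97417551-97417800, minus strand): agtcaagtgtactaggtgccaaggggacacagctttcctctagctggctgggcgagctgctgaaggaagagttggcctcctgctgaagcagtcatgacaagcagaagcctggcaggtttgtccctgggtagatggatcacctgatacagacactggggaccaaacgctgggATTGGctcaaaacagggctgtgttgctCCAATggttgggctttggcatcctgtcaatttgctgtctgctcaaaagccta
Srebf1, first start (chr11:60222582-60222831, minus strand): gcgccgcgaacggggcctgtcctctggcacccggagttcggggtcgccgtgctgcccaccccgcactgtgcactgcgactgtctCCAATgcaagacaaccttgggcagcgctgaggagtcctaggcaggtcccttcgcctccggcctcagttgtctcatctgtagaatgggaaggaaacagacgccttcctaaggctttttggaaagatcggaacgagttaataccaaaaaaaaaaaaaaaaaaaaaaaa
Srebf1, second start (chr11:60220628-60220877, minus strand): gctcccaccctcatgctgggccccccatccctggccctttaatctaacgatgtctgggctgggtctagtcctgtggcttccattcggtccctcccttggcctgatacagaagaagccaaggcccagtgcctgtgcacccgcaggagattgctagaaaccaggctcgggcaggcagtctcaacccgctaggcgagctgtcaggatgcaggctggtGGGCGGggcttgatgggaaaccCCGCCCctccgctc
Srebf1, last start (chr11:60210472-60210721, minus strand): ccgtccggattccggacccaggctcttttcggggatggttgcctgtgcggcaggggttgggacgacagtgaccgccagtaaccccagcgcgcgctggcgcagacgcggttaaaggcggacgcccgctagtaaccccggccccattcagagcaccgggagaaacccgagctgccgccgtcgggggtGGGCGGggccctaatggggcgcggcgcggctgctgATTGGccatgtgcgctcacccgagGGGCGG
Mlxipl, first start (chr5:135089640-135089889, plus strand): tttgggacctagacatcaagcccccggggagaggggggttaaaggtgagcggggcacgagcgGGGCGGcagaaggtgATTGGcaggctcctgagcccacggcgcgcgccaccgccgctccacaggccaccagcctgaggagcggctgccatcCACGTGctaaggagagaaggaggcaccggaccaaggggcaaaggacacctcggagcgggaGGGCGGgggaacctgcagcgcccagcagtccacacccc
Mlxipl, second start (chr5:135106641-135106890, plus strand): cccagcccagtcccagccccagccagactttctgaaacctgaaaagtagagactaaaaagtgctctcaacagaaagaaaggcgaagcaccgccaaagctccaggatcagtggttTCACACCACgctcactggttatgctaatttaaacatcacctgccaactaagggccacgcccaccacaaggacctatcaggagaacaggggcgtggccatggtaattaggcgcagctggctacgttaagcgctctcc

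Fasn held 3 CCAAT boxes, 90, 62 and 59 bases before the start, and Thrsp held 2, at 79 and 52 bases. A CCAAT box was present in 33.8% of all 32851 windows of this length. The 3 Srebf1 windows held no exact match to TCACNCCAC or CACGTG, nor did those of Fasn, Thrsp, Acly and Acacb. GC boxes stood in both Srebf1 windows after the first. The first Mlxipl window held an E-box, present in 6.02% of all windows, and the second held the sterol regulatory element, present in 1.05%. Acly held 4 GC boxes (32.7% of all windows hold at least 1), Acacb 1 CCAAT box, and the windows of Acaca and Elovl6 none of the 4 motifs. These are matches of letters and not sites of binding, which was not measured. Variant spellings of an element were not searched, so a window without a match may still hold one. Whether the windows, that of Acaca among them, stand before the first start of their gene was not checked.

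Libraries held 6969375 to 13516601 counts, with a median of 8280269. Values are normalized read counts, that is, counts divided by the size factor of the library. In 13 of the 24 libraries the counts of weakly expressed genes came in packets of 8 to 25 reads, which makes low counts coarse, and of the 10 genes Mlxipl, at 0 to 276 in PyMT, came nearest to these packets. Skeletal muscle markers (8 genes) were high in 7 libraries, FVB week 6 replicates 1 and 2, FVB week 10 replicate 3, FVB week 12 replicate 1, PyMT week 6 replicates 1 and 2 and PyMT week 10 replicate 3. Adipocyte markers were present in all libraries and lower in every PyMT library than in any FVB library, with a mean log2(normalized count + 1) over 8 genes of 5.77 to 9.59 in PyMT and 11.6 to 13.0 in FVB. Luminal epithelial markers (8 genes) summed to 22794 to 42325 normalized counts in PyMT and to 4698 to 19974 in FVB. In such bulk samples fewer cells of a type and less RNA per cell cannot be told apart.

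Together the 10 genes took 2.48 to 8.09% of all counts in FVB glands and 0.482 to 2.45% in PyMT samples. Scd1 alone took up to 4.96% of an FVB library and Fasn up to 3.18%. Per kilobase of exon, the mean normalized count of Scd1 was 56643 ± 18386 (SD, n = 12) in FVB, that of Fasn 16342 ± 10550.5 and that of Thrsp 8471 ± 5514. Scd1 stood above Fasn by more than the spread, whereas Fasn and Thrsp did not differ beyond it. Acly (3026 ± 1928) and Acaca (1745 ± 1099) followed. Scd2 (779 ± 253), Srebf1 (709 ± 199), Elovl6 (699 ± 511) and Acacb (639.6 ± 434) lay within 1 SD of each other, and Mlxipl was lowest at 236 ± 101. In PyMT, Scd1 again came first at 5071 ± 3293 per kilobase, but Srebf1 moved up to 2165 ± 729, between Thrsp (3492 ± 1852) and Fasn (1919 ± 1813), and these 4 did not differ from their neighbours in the order beyond the spread. Acly (1296 ± 571) and Scd2 (1153 ± 103) came next and did not differ beyond their spread either. Acaca was at 316 ± 231, Elovl6 at 178 ± 104, Acacb at 117 ± 83.6 and Mlxipl at 25.3 ± 15.2 per kilobase in PyMT. All 10 genes passed the filter on low counts.

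**Figure D1:**
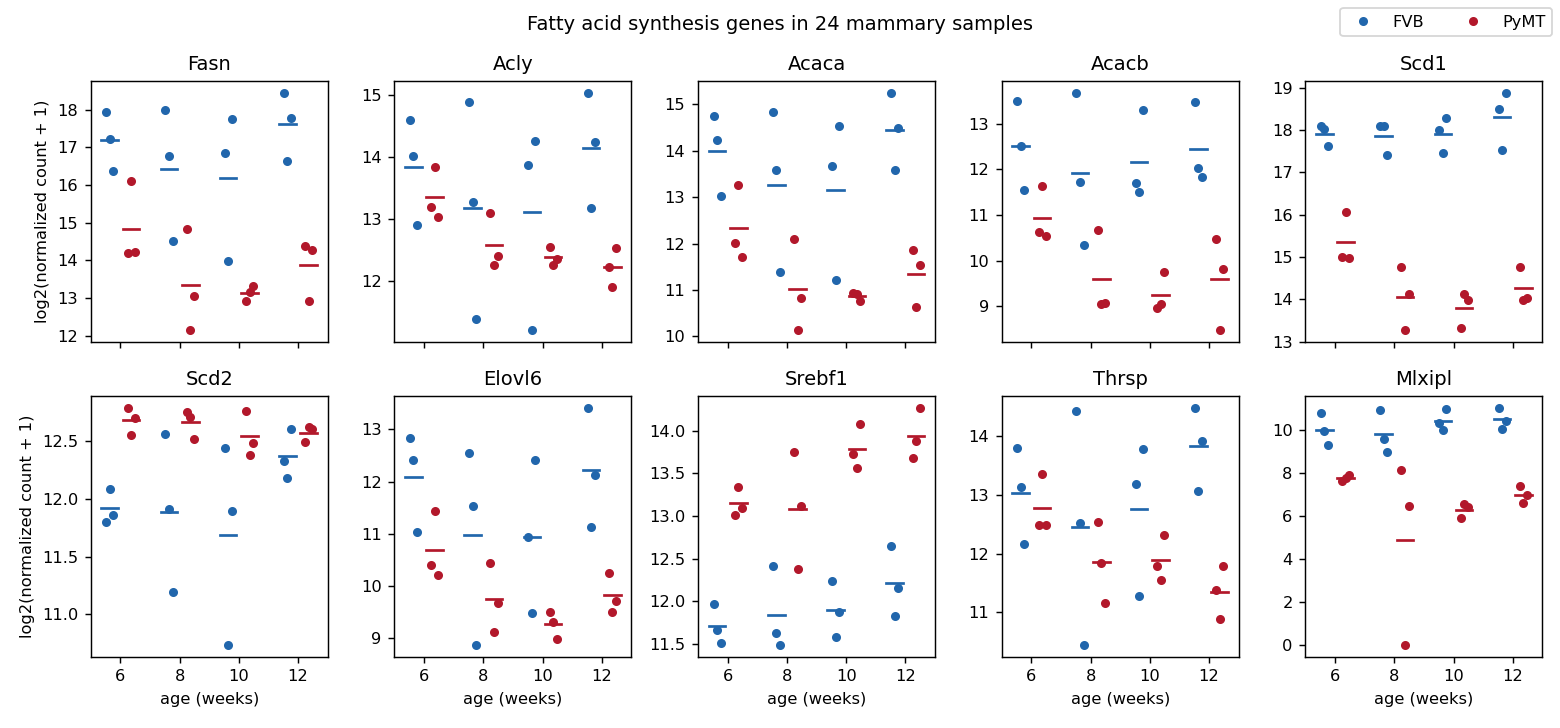
Log2(normalized count + 1) of each gene (y axis) by age in weeks (x axis), 1 point per sample and a line at the mean of 3, FVB in blue and PyMT in red. Scd1 and Mlxipl were lower in all PyMT samples at every week, Srebf1 was higher in all of them but 1 at week 8, Acly and Thrsp overlapped at weeks 6, 8 and 10, and Mlxipl had no read in PyMT week 8 replicate 2.

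Fasn, which builds palmitate, had a lower mean in PyMT at every age and fell on average. In FVB its normalized count in replicates 1, 2 and 3 was 253321, 154036 and 84986 at week 6, 262638, 112560.0 and 23554 in the week 8 glands, 117994, 16241 and 220653 at week 10 and 357772, 101540.0 and 226111 in the oldest mice. In PyMT it was 18690.0, 70503 and 19043, then 29192, 4543 and 8503, then 7729.9, 9210.5 and 10237 and then 21432, 7794 and 19944 through the same weeks. All 3 PyMT values lay below all 3 FVB values at weeks 6, 10 and 12, while at week 8 PyMT replicate 1 lay above FVB replicate 3. Taken over weeks 6, 8, 10 and 12 in turn, the log2 fold change of PyMT over FVB was -2.22 ± 0.61 (SE), -3.22 ± 0.98, -3.65 ± 0.79 and -3.75 ± 0.55. The adjusted p of these in the quasi-likelihood test of edgeR was 0.0518, 0.0754, 0.0177 and 0.00191, so that Fasn passed at weeks 10 and 12. At week 6, and again at week 8, 8 of 17 alternatives called Fasn lower. Averaged over the 4 weeks Fasn was 9.33-fold lower in PyMT (log2 -3.22 ± 0.45, adjusted p = 4.79e-06).

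Both acetyl-CoA carboxylases fell with Fasn. Acaca had a lowest, median and highest normalized count of 2385, 16216 and 38975 in the 12 FVB glands and of 1127, 2464 and 9857 in the 12 PyMT samples. Its highest PyMT value was that of week 6 replicate 2, which exceeded those of 3 FVB glands. Acaca passed at week 10 (log2 -2.76 ± 0.69, adjusted p = 0.0313) and week 12 (-3.12 ± 0.47, 0.00217) and on average was 5.85-fold lower (log2 -2.55 ± 0.39, adjusted p = 1.38e-05). Acacb, whose malonyl-CoA restrains the uptake of fatty acids by mitochondria, ranged over 1299.6, 3922 and 13096 in FVB and 357, 884 and 3195 in PyMT. It passed at week 10 (log2 -3.05 ± 0.52, adjusted p = 0.00676) and week 12 (-2.80 ± 0.59, 0.00964), and on average was 6.01-fold lower.

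Acly differed least among the enzymes that were lower. Its normalized count at week 12 was 33715, 9236 and 19475 in FVB and 4781, 3814 and 5954 in PyMT, with no overlap between the groups. At week 10 it was 15101, 2365 and 19604 in FVB and 5991, 4914 and 5243 in PyMT, so that the lowest FVB gland lay under every PyMT tumor. Acly passed at week 12 (log2 -2.05 ± 0.43, adjusted p = 0.00998) and not at weeks 6 (-0.63 ± 0.42, 0.386), 8 (-1.15 ± 0.74, 0.356) or 10 (-1.14 ± 0.63, 0.267). On average it was 2.39-fold lower in PyMT (adjusted p = 0.00405). Without FVB week 8 replicate 1 the log2 value at week 8 turned to 0.05 and the averaged value was -0.96, under the 2-fold limit.

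Among the desaturases Scd1 fell and Scd2 did not. In FVB glands of weeks 6, 8, 10 and 12, Scd1 was at 280995, 267462 and 200770.0 normalized counts, then 279459, 279836 and 173462, then 264851, 179814 and 319265 and then 370284, 187940.0 and 482950.0. In PyMT of the same weeks it was at 32926, 68518 and 32105, then 27921, 9908 and 17998, then 10199.8, 17805 and 16089.6 and then 27679, 16278 and 16859.6. No PyMT sample reached any FVB gland, and the highest PyMT value was again week 6 replicate 2. Scd1 was the only one of the 10 genes that passed at every week on the lower side, with log2 fold changes, in order of age, of -2.51 ± 0.36 (SE, adjusted p = 0.00442), -3.69 ± 0.48 (0.00658), -4.07 ± 0.31 (0.000241) and -4.05 ± 0.41 (0.000431). The averaged difference was 12-fold (log2 -3.59 ± 0.22, adjusted p = 4.25e-11).

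Scd2, the related desaturase that also lies on chromosome 19, was slightly higher in PyMT. It was at 3567, 4349 and 3719.7 normalized counts in FVB at week 6 and at 7063, 6001 and 6636 in PyMT. At week 8 it was at 6036, 3851 and 2347 in FVB and 6905, 6699 and 5865 in PyMT, and in the week 10 samples at 5541, 1705 and 3814 and 6935, 5333 and 5729. At week 12 it was at 5151, 4636 and 6229.7 in FVB and 5744, 6302 and 6208 in PyMT. The groups were apart at week 6 and overlapped at weeks 8, 10 and 12, and the 12 PyMT values stayed within a 1.32-fold range. The log2 fold change was 0.75 ± 0.20 (SE, adjusted p = 0.0422) at week 6 and 0.24 ± 0.18 (0.368, with an interval of 2 SE from -0.12 to 0.60) at week 12. The averaged value of 0.60 ± 0.16 had an adjusted p of 0.00323, but at 1.51-fold it stayed under the 2-fold limit for a call.

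Elovl6 followed Fasn. Its lowest, median and highest normalized counts were 466, 3724 and 10907 in FVB and 503, 823 and 2759 in PyMT. FVB week 8 replicate 3, the lowest of all 24 samples, lay under every PyMT sample. Elovl6 passed at week 12 (log2 -2.63 ± 0.53, adjusted p = 0.0081), missed at week 10 (-2.06 ± 0.63, 0.0626), where 8 of 17 alternatives called it, and on average was 4-fold lower (adjusted p = 0.000137).

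The regulators split. Srebf1 was higher in PyMT while Mlxipl was lower. Through weeks 6, 8, 10 and 12 of FVB, Srebf1 was at 3997, 3246 and 2925 normalized counts, then 5470.1, 3161 and 2871, then 4820.4, 3054 and 3739 and then 6416, 3639.6 and 4575. The PyMT values of these weeks were 8254, 10404 and 8732, then 13803, 5333 and 8861, then 13578, 12127 and 17283 and then 13175, 15063 and 19753. The groups did not overlap at weeks 6, 10 and 12, and at week 8 the lowest PyMT sample, replicate 2, lay under FVB replicate 1. Srebf1 rose at week 6 by a log2 fold change of 1.42 ± 0.22 (SE, edgeR adjusted p = 0.00581), in the week 10 tumors by 1.94 ± 0.26 (0.00245) and by 1.76 ± 0.27 (0.00233) at week 12. At week 8 the value was 1.30 ± 0.41 (0.0814), and 11 of 17 alternatives called Srebf1 higher. On average it was 3.02-fold higher in PyMT (log2 1.59 ± 0.16, adjusted p = 5.34e-08).

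Mlxipl was the weakest of the genes and in PyMT near the limit of its coarse counts. Through weeks 6, 8, 10 and 12 of FVB, it was at 1755, 989.6 and 617 normalized counts, then 1897, 748 and 495, then 1256, 1018 and 1966 and then 2064, 1059 and 1334. The PyMT values of these weeks were 197, 213 and 238, then 276, 0 and 86.5, then 58.7, 93.3 and 83.6 and then 163, 94 and 124. Every PyMT value lay below every FVB value. The 0 at week 8 stands in a library with packets of 23 reads. Mlxipl passed at week 6 (log2 -2.38 ± 0.38, adjusted p = 0.00653), week 10 (-4.12 ± 0.32, 0.000265) and week 12 (-3.50 ± 0.31, 0.000314) and not at week 8 (-3.09 ± 1.24, 0.15). On average it was 9.75-fold lower (adjusted p = 9.35e-07).

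Thrsp resembled Acly and Elovl6 in passing at week 12 alone. Its normalized count was 14238, 8955 and 4568 in FVB and 5707, 10517 and 5713 in PyMT at week 6, where the groups overlapped, and 22849, 8609 and 15511 and 2648, 1892 and 3517 at week 12, where they did not. The log2 fold change was -0.36 ± 0.42 (SE, adjusted p = 0.642) at week 6 and -2.49 ± 0.39 (0.00246) at week 12, and only at week 12 did it pass. On average Thrsp was 2.5-fold lower (adjusted p = 0.00313). Its sign at week 6 rested on FVB replicate 1, without which the value was 0.13, and at week 8 it turned to 0.17 without FVB replicate 1. Without that week 8 gland the averaged value was -0.97, under the 2-fold limit.

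**Figure D2:**
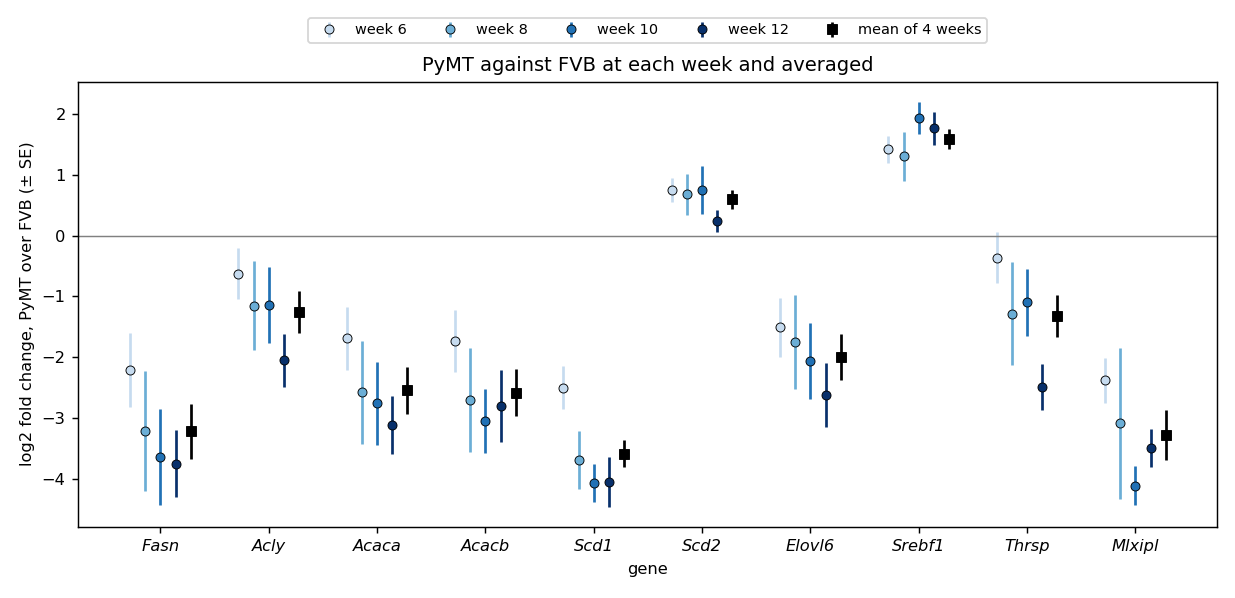
Log2 fold change of PyMT over FVB (y axis, ± SE) for each gene (x axis) at weeks 6, 8, 10 and 12 (circles, light to dark) and averaged over the 4 weeks (black squares). Srebf1 and Scd2 lie above 0 at every week and the other 8 genes below it, from -1.26 for Acly to -3.59 for Scd1 on average.

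Counted together, a gene was called when it changed more than 2-fold with an adjusted p below 0.05, the limits of the study. At week 6, 2 of the 10 genes were called lower in PyMT (Scd1 and Mlxipl) and 1 higher (Srebf1), against 6.46% and 3.58% of the 14918 genes tested. At week 8, 1 was called lower (Scd1) and 0 higher, against 6.37% and 3.57%, although at an unadjusted p under 0.05 there were 6 of the 10 genes and DESeq2 called 3 lower and 1 higher. At week 10, 5 were called lower (Fasn, Acaca, Acacb, Scd1 and Mlxipl) and 1 higher, against 9.09% and 4.83%. At week 12, 8 were called lower and 1 higher, against 13% and 7.75%. Averaged over the 4 weeks the same 8 genes were called lower and Srebf1 higher, against 17.5% and 8.7% of all genes. The median log2 fold change at week 12 was -2.71 over the 10 genes and -0.00 over all genes tested.

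The counts of weeks 6, 8 and 10 turned on single samples. At week 6, 6 genes were called lower without FVB replicate 3 and 4 without PyMT replicate 2. At week 8, 5 were called lower without FVB replicate 3, Srebf1 was called higher without PyMT replicate 2, and Srebf1 and Scd2 were without FVB replicate 1. At week 10, 8 were called lower without FVB replicate 2, 4 without FVB replicate 1 (Acaca was lost), and 3 without any 1 of the 3 PyMT samples (Fasn and Acaca were lost). Without the 7 libraries with high skeletal muscle markers (a mean log2 above 9), week 6 kept 1 sample per genotype. The averaged log2 value was then -0.80 for Acly and -0.97 for Thrsp, under the 2-fold limit. FVB week 12 replicate 1, the highest FVB gland for both genes, was among those left out. The same 2 genes came out smallest by voom, at -0.67 for Acly (adjusted p = 0.055) and -0.76 for Thrsp (0.0304), where 6 genes were called lower. Without the 2 libraries with the most genes at 0 the averaged comparison called 8 lower and 1 higher. Scaling by library size alone put the median of all genes at a log2 value of 0.26 in the average, where 2032 genes were then lower and 2064 higher against 2611 and 1298 here, and under it Acly (-0.88) and Thrsp (-0.94) fell short of the 2-fold limit while Scd2 passed it at week 6 (1.01).

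The distance between PyMT and FVB was wider at week 12 than at week 6 for all 10 genes but Scd2, whose log2 value was smaller, but no gene passed a test of that change. The change of the log2 fold change from week 6 to week 12 was -2.16 ± 0.97 (SE) for Thrsp, -1.56 ± 1.18 for Fasn, -1.56 ± 0.56 for Scd1 and 0.33 ± 0.45 for Srebf1. The quasi-likelihood test of edgeR called 0 of the 10 genes and 0% and 0% of all genes lower and higher, with the adjusted p of Scd1 at 0.942 and that of Thrsp at 1. At an unadjusted p under 0.05 there were 2 of the 10 (Scd1 and Thrsp) and 691 of all genes, and DESeq2 called 6 of all genes lower and 5 higher, with 0 of the 10 among them. The intervals of 2 SE were wide, from -3.93 to 0.80 for Fasn.

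Within PyMT, week 12 against week 6 gave log2 values of -1.12 ± 0.40 (SE) for Scd1, -1.43 ± 0.69 for Thrsp and 0.82 ± 0.32 for Srebf1, and 0 genes were called lower (0% of all genes) or higher (0%). Scd1 and Srebf1 had an unadjusted p under 0.05, as did 1004 of all genes, and DESeq2 called 22 of all genes lower and 75 higher, again with 0 of the 10. Within FVB the values ran from -0.12 for Acacb to 0.72 for Thrsp, with 0 called lower (0%) or higher (0%) by edgeR, 0 of the 10 genes and 625 of all genes at an unadjusted p under 0.05, and 9 lower and 10 higher of all genes but 0 of the 10 called by DESeq2.

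Ratios within a sample set genes of like function against each other, nearly free of the scaling of the library. They draw on the same counts as the differences of single genes above and are no separate support for them. The log2 ratio of Scd2 to Scd1 was -6.03 ± 0.407 (SD, n = 12) in FVB and -1.76 ± 0.803 in PyMT. All 12 PyMT samples, from -3.51 to -0.56, lay above all 12 FVB glands, from -6.72 to -5.34. The difference averaged over weeks was 4.28, with a two-sided exact permutation p of 1.25e-05 with genotype permuted within weeks, the smallest that the 160000 assignments can give, and an adjusted p of 1.88e-05 over the 3 ratios. In PyMT the ratio was lowest at week 6, at -2.67 ± 0.731 (SD, n = 3), and -1.69 ± 0.5 at week 12. Scd1 thus remained above Scd2 in all 24 samples.

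The log2 ratio of Srebf1 to Mlxipl, each counted over all starts of the gene, was 1.74 ± 0.436 (SD, n = 12) in FVB and 7.03 ± 1.92 in PyMT. The genotypes again did not overlap and differed by 5.28 (exact permutation p = 1.25e-05, adjusted p = 1.88e-05). PyMT week 8 replicate 2, with no Mlxipl read, set the upper end of 12.38 through the pseudocount of 1, and without it the difference was 4.76. The log2 ratio of Acaca to Acacb showed no difference beyond the spread. It was 1.45 ± 0.707 in FVB and 1.55 ± 0.361 in PyMT, a difference of 0.09 (exact permutation p = 0.706, adjusted p = 0.706), with both groups overlapping at every week.

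**Figure D3:**
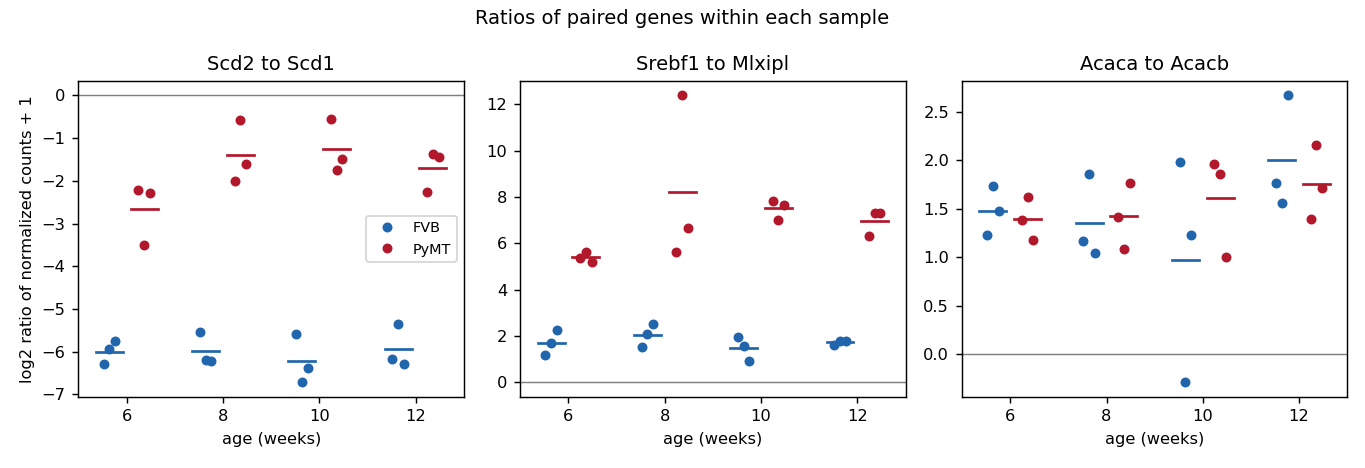
Log2 ratio of normalized counts + 1 of 2 genes in the same sample (y axis) by age in weeks (x axis), 1 point per sample and a line at the mean of 3, FVB in blue and PyMT in red. The genotypes are apart for Scd2 to Scd1 and for Srebf1 to Mlxipl at every week and overlap for Acaca to Acacb.

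The normal glands differed widely among themselves. Among the 12 FVB glands the highest value was 22.0 times the lowest for Fasn, 23.4 times for Elovl6, 16.3 for Acaca, 16.4 for Thrsp and 14.3 for Acly, but 2.78 times for Scd1 and 2.23 times for Srebf1. Week 8 replicate 3 and week 10 replicate 2 were the 2 lowest FVB glands for Fasn, Acly, Acaca, Elovl6 and Thrsp and also for Scd1 and Scd2, and week 12 replicate 1 was the highest for the first 5 of these. In those 2 glands Fasn was at 23554 and 16241 normalized counts, against a median of 136015, while Scd1 was at 173462 and 179814, against a median of 273460.0. The adipocyte markers were not low there, with a mean log2 of 12.3 and 12.8 against a range of 11.6 to 13.0 over the 12 glands. The mean log2 of the skeletal muscle markers was 5.97 and 1.36 in those glands. It was 14.4 in week 12 replicate 1, highest for Fasn, but 5.33 in week 8 replicate 1, the next highest. The part of tissue makeup in this spread was not tested.

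**Figure D4:**
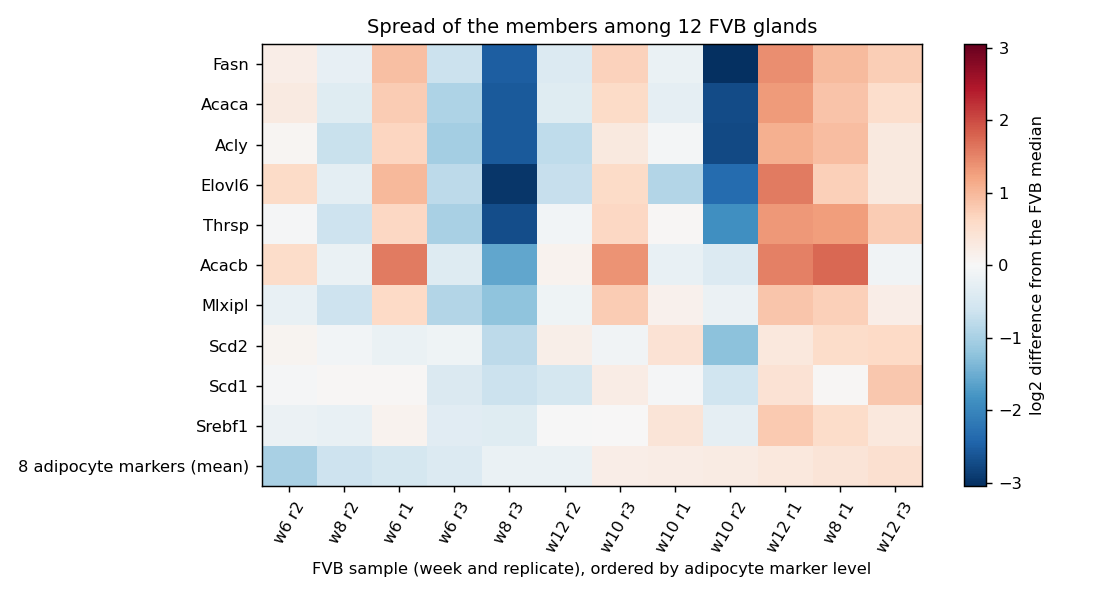
Log2 difference of each gene from its median over the 12 FVB glands (color, red higher and blue lower), with glands ordered along the x axis by the mean of 8 adipocyte markers, which fill the bottom row. Fasn, Acaca, Acly, Elovl6 and Thrsp are low together in week 8 replicate 3 and week 10 replicate 2, where the marker row is at 12.3 and 12.8.

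The synthesis genes varied together across glands. Over the 12 FVB glands Pearson's r of log2 values, given as a description, was 0.996 for Fasn and Acaca, 0.991 for Acly and Acaca, 0.987 for Fasn and Acly, 0.960 for Fasn and Elovl6 and 0.951 for Fasn and Thrsp. It was 0.840 for Fasn and Scd2, 0.794 for Fasn and Scd1 and 0.716 for Fasn and Srebf1. Over the 12 PyMT samples r was 0.982 for Fasn and Acaca, 0.912 for Fasn and Scd1 and 0.911 for Fasn and Elovl6. It was 0.210 there for Fasn and Srebf1 and 0.0043 for Fasn and Scd2, whose PyMT values spanned only 1.32-fold. Points of a pair share their library and its composition, and PyMT samples share a course of age.

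The genes whose pattern over all 24 samples was most like that of Fasn were Acss2, which makes acetyl-CoA from acetate (r = 0.979), and the mitochondrial citrate carrier Slc25a1 (0.976), and the same pair came first for Acaca (0.984 and 0.968). For Acly it was Tkt, a transketolase of the pentose phosphate pathway (0.976), and Pdhb, a subunit of pyruvate dehydrogenase (0.923), and Tkt (0.955) and Dhrs7 (0.918) for Thrsp. Elovl6 was most like Me1, the cytosolic malic enzyme that yields NADPH (0.972), and Acss2 (0.956), and Acacb was most like Gpd1, which makes glycerol 3-phosphate (0.975), and Gm13910 (0.957). Scd1 was most like Ptger3, a prostaglandin E2 receptor (0.986), and the lipid droplet protein Plin1 (0.983), itself one of the adipocyte markers used here, and Mlxipl was most like Aldh1l1 (0.976) and Kbtbd11 (0.976). Srebf1 was most like Atp6v1b1, a subunit of the vacuolar proton pump (0.946), and Homer2 (0.931), and Scd2 like the phosphate carrier Slc34a2 (0.844) and Clic6 (0.844). Both genotypes enter these values, so a shared difference between PyMT and FVB raises them.

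Because fat cells express the pathway, each gene was also set against the mean of the 8 adipocyte markers within a genotype, as the log2 change per log2 unit of the markers. In PyMT 5 of the 10 genes rose with the markers, against 0.704% of all genes (adjusted p under 0.05, no limit of size). Their slopes were 1.20 ± 0.27 (SE, n = 12, edgeR adjusted p = 0.0324) for Mlxipl, 0.80 ± 0.16 (0.0215) for Fasn, 0.63 ± 0.13 (0.0215) for Acaca, 0.62 ± 0.10 (0.00446) for Scd1 and 0.49 ± 0.10 (0.0265) for Elovl6. Acacb (0.56 ± 0.15, 0.098), Acly (0.30 ± 0.10, 0.179) and Thrsp (0.26 ± 0.13, 0.453) had positive values that did not pass. Scd2 had a slope of -0.02 ± 0.05, with an interval of 2 SE from -0.11 to 0.07, and Srebf1 one of -0.00 ± 0.14. None of the 10 fell, against 0.328% of all genes.

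These slopes rested on few samples. Without PyMT week 8 replicate 2, which had the lowest markers at 5.77, 1 gene (Scd1) was called, without PyMT week 6 replicate 2, which had the highest, 2 (Scd1 and Mlxipl), and without the 2 samples farthest from the median 0 by edgeR. With week as a factor 0 were called, with Scd1 at an adjusted p of 0.0941 and Mlxipl at 0.0682. In FVB, whose markers spanned only 11.6 to 13.0, the slopes ran from 0.19 for Elovl6 to 0.81 for Thrsp, and edgeR called 0 of the 10 higher (0.127% of all genes) and 0 lower (0.0067%), with 1 of the 10 (Srebf1) and 1568 of all genes at an unadjusted p under 0.05.

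**Figure D5:**
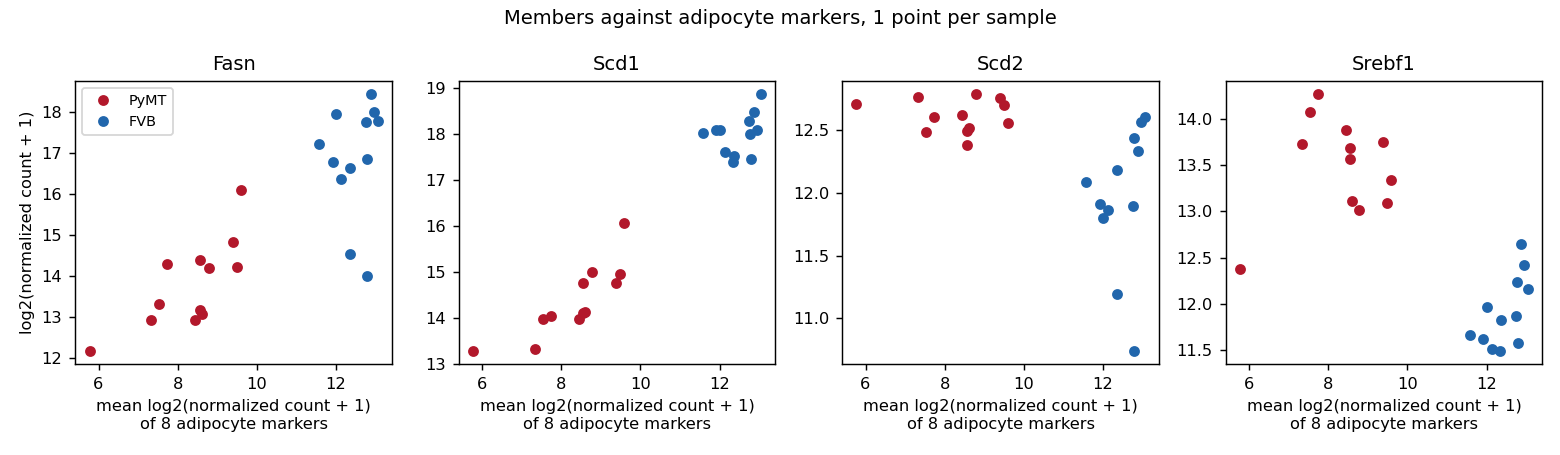
Log2(normalized count + 1) of Fasn, Scd1, Scd2 and Srebf1 (y axes) against the mean log2(normalized count + 1) of 8 adipocyte markers (x axes), 1 point per sample, PyMT in red and FVB in blue. Fasn and Scd1 are high where the markers are high within PyMT, Scd2 is level there, and Fasn spans 22.0-fold among FVB glands of like marker level.

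The marker lists moved with the genotype too. At week 12 all 8 adipocyte markers were called lower in PyMT, with a median log2 fold change of -4.39, beyond the -4.05 of Scd1, and 6 of 8 luminal markers were called higher, with a median of 1.80. These and the next counts stand against 13% of all genes called lower and 7.75% called higher. Of the other lists 3 of 7 milk secretion markers tested were called higher, 3 of 6 basal markers and 6 of 8 skeletal muscle markers were called lower, 0 of 6 brown fat and 0 of 6 macrophage markers were called in either direction, and none of the 8 lymph node markers was expressed enough to be tested. Averaged over the 4 weeks 6 of the milk secretion markers were called higher, and all 6 brown fat and all 8 skeletal muscle markers lower, against 8.7% and 17.5% of all genes. Srebf1, at 1.76, lay near the luminal median, and 8 of the 10 genes lay on the side of the adipocyte markers. The part of tissue makeup in these differences was not tested.

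Genes that feed the pathway were lower as well at week 12. Of 9 genes that supply citrate, acetyl-CoA and NADPH, 6 were called lower at week 12 and 0 higher, against 13% and 7.75% of all genes, with a median log2 fold change of -1.36 against -0.00 over all genes. Slc25a1 (-3.51 ± 0.51, SE, edgeR adjusted p = 0.00184) and Acss2 (-3.40 ± 0.54, 0.00275) fell most, while the log2 values of Aco1, a cytosolic aconitase (-0.64 ± 0.17, 0.0221), and Pgls of the pentose phosphate pathway (0.15 ± 0.21, 0.639) were the smallest in size or above 0. Of 7 genes of triglyceride assembly 6 were called lower, against the same 13% (median -3.00). Dgat2, which adds the last acyl chain, was at -4.90 ± 0.41 (edgeR adjusted p = 0.000269) and Agpat2 at -3.72 ± 0.44 (0.000794). Dgat1 (-2.02 ± 0.25, 0.00095) and Agpat6 (-0.26 ± 0.20, 0.364) were at the other end. Before week 12 the supply genes called lower were Slc25a1, Idh1 and G6pdx at week 6, against 6.46% of all genes. At week 8 G6pdx alone was called lower (6.37%), and at week 10 Slc25a1, Cs, Acss2, Idh1 and G6pdx were (9.09%).

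Other elongases and desaturases were mixed, with 2 of 12 tested called lower and 1 higher at week 12, shares near the 13% and 7.75% of all genes. Those called lower, named after their values were seen, were Fads3, a member of the fatty acid desaturase family (-3.07 ± 0.30, SE, adjusted p = 0.000409), which was called lower at the other 3 weeks too, and Hsd17b12, a reductase of the elongation cycle (-1.30 ± 0.26, 0.00743). Elovl4 (-3.61 ± 1.57, adjusted p = 0.124) and Scd4 (-3.56 ± 1.18, 0.0541) had the lowest values without passing, and Elovl7 rose (1.21 ± 0.28, 0.0146), while Fads2 was at 0.94 ± 0.22 (0.0145), under the 2-fold limit. Of 14 genes that control SREBP, ChREBP and the carboxylases 4 were called lower and 0 higher, against 13% and 7.75% of all genes. Nr1h3, the liver X receptor alpha that drives Srebf1, fell (-3.48 ± 0.57, 0.00313), as did Insig1, which holds SREBP in the endoplasmic reticulum (-2.34 ± 0.39, 0.00335). Scap, the escort of SREBP (0.68 ± 0.22, 0.0465), and the protease Mbtps2 (0.51 ± 0.27, 0.2) were at the upper end.

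Cholesterol synthesis, the pathway of SREBP-2, was mixed over the weeks. At week 6, 3 of the 13 genes tested were called higher (Fdps, Sqle and Dhcr7, named after their values were seen) and 0 lower, against 3.58% and 6.46% of all genes, 11 values lay above 0 and the median was 0.94. Their summed normalized count at week 6 was 4806 to 5815 in PyMT and 3021 to 3369 in FVB, without overlap. At week 12, 1 was called lower, Fdft1 (-1.21 ± 0.25, adjusted p = 0.009), and 1 higher, Sqle (1.02 ± 0.21, 0.00895), against 13% and 7.75% of all genes, and the median was -0.32. Next to these at either end were Mvk (-0.76 ± 0.38, 0.17) and Idi1 (0.55 ± 0.47, 0.42). Averaged over the 4 weeks the median was 0.33 for cholesterol synthesis and -2.27 for the 10 genes of fatty acid synthesis.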

How the data were processed

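Total RNA of snap-frozen mammary tissue was depleted of ribosomal RNA, made into directional libraries and sequenced on an Illumina HiSeq. The authors aligned reads to mm9 with GSNAP and used HTSeq to count them, so the deposited values are counts of 37991 Ensembl genes, not normalized. The strand setting of the counting was not given in the sources used here. Samples were grouped by the genotype and week in the labels, and per the study each came from its own mouse. The 10 genes and all lists were chosen with earlier results of these data known.

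A gene was tested if 12 or more of the 24 samples reached 1 CPM (14918 genes). edgeR 4.0.16 (R 4.3.3) with TMM factors and its quasi-likelihood test gave log2 fold changes of PyMT over FVB within each week (6 samples a fit) and, over all 24 samples, the average of the 4 weeks, the change from week 6 to 12 in each genotype and the difference of these changes. Slopes on the mean of 8 adipocyte markers were fitted over the 12 samples of a genotype. P-values were adjusted over all genes tested by the Benjamini-Hochberg method. A call needed an adjusted p under 0.05 and, except for slopes and the difference of changes, a fold change above 2. The SE was taken from the log2 value and its F statistic. Levels are counts divided by DESeq2 1.42.0 size factors, with a pseudocount of 1 for log2 values. Ratios were compared by exact permutation of genotype within weeks over 160000 assignments.

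For each list of neighbouring genes the 2 with the highest and the 2 with the lowest log2 fold change at week 12 were named, and for each of the 10 genes the 2 with the highest Pearson's r over 24 samples. Of 125 list genes 124 were matched by symbol. Promoters came from RefSeq on GRCm38.p6 and positions of genes from GENCODE M1 on mm9, and no coordinate was converted. Alternatives were DESeq2, limma 3.58.1 voom, edgeR's exact, likelihood ratio and fold-change tests, other scalings, no filter, counts divided by packet size, a replicate block, 1 fit of all samples, and each sample left out. Those without libraries high in muscle markers or rich in genes at 0 were chosen after seeing the data.

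Replicate numbers were checked for pairing. The correlations of deviations between same-numbered PyMT and FVB samples ran from -0.0251 to 0.177, and no week had all 3 above 0.1. The same number gave the best match for all 3 replicates at week 10. It also did for replicates 1 and 3 at week 8 and replicate 3 at week 6, and for none at week 12. Pairing was thus not settled. The numbers were not taken as pairs, and a replicate block was run as an alternative. No 2 samples of a group held counts within sampling noise (chi-square per gene 19.6 to 223). The fits were tested on simulated data of 14918 genes with 200 changed 4-fold, of which 61.5% were recovered at week 12 and 85.5% in the average.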

Additional observations from a re-analysis of the deposited data

How the results depend on the processing

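Of the counts of genes called and the 3 ratios, 400 values under alternatives stayed on their side, 38 moved and 1 reversed. At week 6 the genes called lower, 2 here, were 6 by the edgeR exact test, the likelihood ratio test, no filter or counts divided by packet size, 5 by voom, 4 by DESeq2 and 2 to 6 with a sample left out, and those called higher, 1 here, were 2 with scaling by library size and 0 by a test against a 2-fold change. At week 8 the lower calls, 1 here, were 4 by the exact and likelihood ratio tests, 3 by DESeq2 or with the replicate block, 5 with packets divided out or all 24 samples in one fit, 6 without a filter and 1 to 5 with a sample left out, and the higher calls, 0 here, were 1 under each of these and with scaling by library size, 2 by voom and 0 to 2 with a sample left out. At week 10 the lower calls, 5 here, were 3 to 8 with a sample left out and 4 to 6 otherwise, and on average, 8 here, 6 to 8 in both cases. The slopes called within PyMT, 5 here, fell to 0 with week as a factor or without the 2 farthest samples, to 2 with 5 markers and to 1 to 5 with a sample left out. The ratio of Acaca to Acacb ran from -0.0639 to 0.22 with a sample left out. The causes were not tested.

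Directions turned for values that had not passed. By voom Acly (0.29) and Thrsp (0.32) turned at week 8 and the FVB change of Acacb to 0.0551. With a sample left out, Thrsp ran from -0.64 to 0.13 at week 6, and at week 8 Thrsp from -1.77 to 0.17 and Acly from -1.61 to 0.0536. Likewise the FVB changes from week 6 to 12 ran from -0.85 to 0.53 for Acacb, -0.25 to 0.75 for Acly, -0.61 to 0.63 for Elovl6, -0.0559 to 0.92 for Fasn and -0.10 to 0.83 for Acaca, the FVB slope of Elovl6 from -0.19 to 0.56 and the PyMT slope of Srebf1 from -0.36 to 0.0635. The PyMT slope of Srebf1 was 0.25 with week as a factor, 0.00136 with scaling by library size and 0.0169 with 5 markers, and that of Scd2 0.0545 without the 2 farthest samples. Scaling by library size alone moved the median of all genes by up to 0.32 and turned no genotype difference.

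With the replicate block the exact p of the ratios was 0.74 for Acaca to Acacb and 0.000488 for both others, Fasn, Acacb and Srebf1 were gained at week 8, and Acaca was lost at week 10 (adjusted p = 0.0572) and Acly in the average (-0.94). It called 0 of the 10 for the change of the difference from week 6 to 12, and could not be fitted for the changes within 1 genotype.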
